A study of Drosophila melanogaster with 2 samples.

Results

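The translation initiation factor genes of Drosophila melanogaster were taken as the protein-coding genes of the Ensembl BDGP6 annotation (release 115) whose symbol starts with eIF. There are 44 of them among 13945 protein-coding genes on the arms of the assembled chromosomes. For each gene the binding of Daughterless, a class I basic helix-loop-helix transcription factor that pairs with tissue-specific factors of its family, was read from peak lists of chromatin immunoprecipitation and sequencing (ChIP-seq). The material was whole embryos of mixed sex, collected over 0 to 24 h, from a transgenic line that stably expresses da with green fluorescent protein (GFP) at its C-terminus, and the chromatin was pulled down through the GFP tag. The promoter that drives the transgene is not given in the sources used here. There was 1 group with 2 biological replicates, numbered 2 and 3 in the labels, and no other condition, so every value below describes this group and no test between groups exists.

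Initiation factors bring the small ribosomal subunit, the initiator methionyl tRNA and the capped mRNA together and then let the large subunit join at the start codon. eIF2 carries the tRNA and eIF2B recharges eIF2 with GTP. eIF3 is the large scaffold on the small subunit, eIF4F (eIF4E, eIF4G and eIF4A) binds the cap and unwinds the leader, eIF1, eIF1A, eIF5 and eIF5B govern start codon choice and subunit joining, and eIF6 keeps the large subunit from joining early. The genes are used by all growing cells, but several subunits have further copies in the fly, and eIF4E3 and eIF4G2 are known for roles in the testis.

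The files were lists of regions, each with a signal, the peak height over the control that the authors' caller gave. The thresholded list held 1941 regions with pooled signals from 64.2 to 877 (median 88.2), selected by the authors on the irreproducible discovery rate, a measure of how well replicates rank the same regions. The relaxed lists held 30000 regions for the pooled reads and for either replicate, and they reach down into background (lowest pooled signal 18.1). Pooled signals are close to the sum of the replicate signals and are on another scale. Read depth is unknown because the lists carry no read counts. A gene is called here to have a peak when the summit of a thresholded region falls between 1000 bp before its start and 1000 bp past its end.

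Of the 44 eIF genes, 9 had a thresholded peak (20.5%, 95% Wilson interval 11.2 to 34.5), where 16.1% of all protein-coding genes had one. The 9 genes are eIF2Bbeta, eIF6, eIF1, eIF3c, eIF3a, eIF4EHP, eIF3h, eIF3g1 and eIF2beta, in falling order of signal. The share of the eIF genes is near that of all genes, and the interval, which covers counting error only, includes it. Near a transcription start site (TSS) of their own, within 500 bp, 6 eIF genes had a summit (13.6%), where 10.3% of all genes did. Another 28 eIF genes had a region in the pooled relaxed list only, and the remaining 7 had none. Signals of the 9 genes ran from 67.8 to 707 with a median of 106, and the best relaxed regions of the 28 ran from 18.2 to 64.1 with a median of 37.4.

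**Figure D1:**
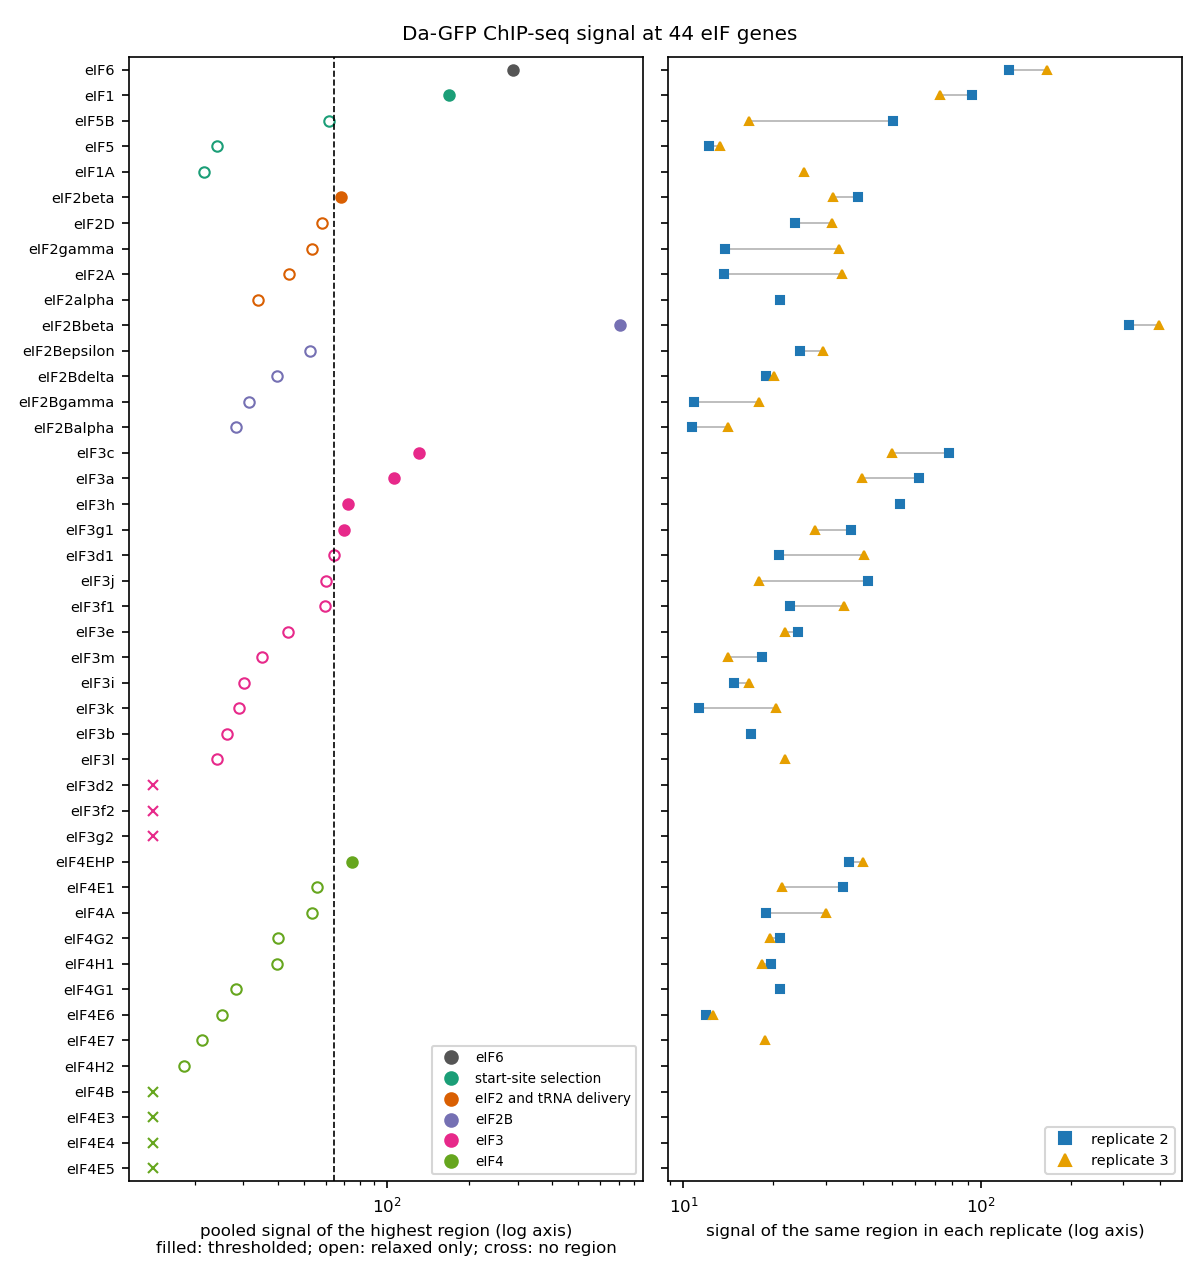
Signal of the highest region of each of the 44 eIF genes, grouped by role; the left panel gives the pooled signal on a log axis with the lowest thresholded signal of 64.2 as a dashed line, and the right panel gives the same region in replicate 2 and replicate 3 on a log axis. Filled circles are the 9 genes with a thresholded peak, led by eIF2Bbeta (707) and eIF6 (289), and crosses mark the 7 genes with no region.

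The 11 distinct thresholded summits at these genes differed in sequence and in their distance from the eIF gene. The 4 windows below are shown because they hold the strongest peak of the set, the pair of summits next to eIF1 and eIF3a that carry the same 8-base element, and a summit of eIF4EHP that lies nearer to another gene. Each is the part of the window of 50 bp on either side of the summit that is free of annotated exons, from the Release 6 assembly in dm6 coordinates, on the strand of the eIF gene and 5′ to 3′. Capitals mark E-boxes (CANNTG, the hexamer family bound by helix-loop-helix dimers) and TATCGATA, the core of the DNA replication-related element (DRE) of many fly housekeeping promoters.
eIF2Bbeta, chrX:2703853-2703941, plus strand: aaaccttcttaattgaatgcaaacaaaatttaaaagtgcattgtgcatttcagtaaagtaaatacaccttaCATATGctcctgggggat
eIF1, chr3L:3222969-3223069, plus strand: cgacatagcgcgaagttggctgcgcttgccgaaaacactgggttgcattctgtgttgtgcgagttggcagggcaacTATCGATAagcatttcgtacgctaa
eIF3a, chr3R:4433896-4433964, minus strand: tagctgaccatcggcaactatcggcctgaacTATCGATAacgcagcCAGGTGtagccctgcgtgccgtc
eIF4EHP, chr3R:24109248-24109335, minus strand: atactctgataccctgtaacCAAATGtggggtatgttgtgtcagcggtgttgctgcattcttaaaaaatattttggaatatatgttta
The eIF2Bbeta window holds a CATATG, the eIF1 window a TATCGATA, the eIF3a window both a TATCGATA and a CAGGTG, and the eIF4EHP window a CAAATG.

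Among the genes for start codon choice and subunit joining, eIF1 had a peak and eIF1A, eIF5 and eIF5B had none. eIF1 (FBgn0035423, 3L 3223341 to 3224650, plus strand) encodes the small factor that keeps the scanning complex open until the start codon is found. Its peak (3L 3222821 to 3223216) had a signal of 93.5 in replicate 2, 73.0 in replicate 3 and 168 pooled, at rank 208 of 1941. The summit was 322 bp upstream of the eIF1 TSS and 59 bp upstream of the TSS of RpL28, a ribosomal protein gene that is transcribed the other way, with 381 bp between both start sites. Which of the genes the peak belongs to was not tested.

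The other genes of this group stood lower, and their best regions lay in an intron or nearer to the start of another gene. eIF5B, which encodes the GTPase of subunit joining, had its best region (pooled signal 61.4, rank 2136 of 30000) in an intron, 22037 bp from its TSS. That region was high in replicate 2 (50.4, rank 689) and low in replicate 3 (16.6, rank 13005). eIF5, whose product makes eIF2 hydrolyse its GTP, had a best signal of 24.1 past the end of the gene, next to the TSS of ND-20. eIF1A had 21.5 at 475 bp upstream of its TSS, with the TSS of Vps39 nearer.

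Of the genes for eIF2 and other tRNA carriers, eIF2beta was called through a peak at its neighbour. The peak of eIF2beta (FBgn0004926, 3L 12525093 to 12526731, minus strand) lay downstream of the gene, 2592 bp from its TSS and 125 bp upstream of the TSS of Gcn5, which encodes a histone acetyltransferase. Its signal was 38.6 in replicate 2, 31.9 in replicate 3 and 67.8 pooled, rank 1719 of 1941. eIF2D, eIF2gamma and eIF2A had relaxed regions at their own start sites, with pooled signals of 57.9 at 33 bp into the gene, 53.4 at 33 bp upstream and 44.0 at 60 bp upstream of the nearest TSS. The annotated start of eIF2gamma is as near to its summit as a start of Su(var)3-9, the histone methyltransferase gene of the same locus. eIF2alpha, whose product is phosphorylated under stress, had 33.8 at 21 bp upstream and was found in replicate 2 (21.0) but had no region within 200 bp in replicate 3.

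The gene for the beta subunit of eIF2B held the strongest peak of the 44 genes and the third strongest of the genome. Its summit at X 2703891 (region 2703715 to 2704044) had a signal of 314 in replicate 2, 395 in replicate 3 (mean 355 ± 56.7, SD, n = 2) and 707 pooled, and it ranked 3 and 4 in the replicates' own lists. The summit was 680 bp upstream of the TSS of eIF2Bbeta (FBgn0024996, X 2704571 to 2706217, plus strand). It was 39 bp upstream of the TSS of Ugalt, a UDP-galactose transporter gene on the minus strand, so by the nearest start the peak is that of Ugalt.

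The other 4 eIF2B genes had relaxed regions only. eIF2Bepsilon, which encodes the catalytic subunit, had a pooled signal of 52.6 at 12 bp upstream of its TSS, with 24.6 in replicate 2 and 29.4 in replicate 3. eIF2Bdelta had 39.8 at 81 bp upstream, with a TSS of roh nearer at 9 bp. eIF2Bgamma had 31.4 downstream of the gene and eIF2Balpha 28.2 at 39 bp upstream.

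The eIF3 genes, 16 in number, included 4 with a peak (25%, Wilson interval 10.2 to 49.5, where 16.1% of all genes had one). eIF3c (FBgn0034258, 2R 17665678 to 17669275, plus strand) and eIF3a (FBgn0037249, 3R 4429798 to 4433895, minus strand) encode scaffold subunits of the core and had the highest signals of the group. At eIF3c the signal was 78.0 in replicate 2, 50.2 in replicate 3 and 131 pooled (rank 388), with the summit at 2R 17665617, 61 bp upstream of the TSS. At eIF3a it was 61.8 in replicate 2, 39.8 in replicate 3 and 106 pooled (rank 631), with the summit at 3R 4433924, 29 bp upstream of the TSS. The start of CG1074 lies 41 bp from the same summit on the other strand, and the pair of start sites is 70 bp apart. Both eIF3 peaks were higher in replicate 2, with a log2 difference (replicate 3 over replicate 2) of -0.64 at eIF3c and -0.63 at eIF3a.

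eIF3h and eIF3g1 were called closer to the threshold. eIF3h (FBgn0022023, 2L 5051193 to 5053094, minus strand) had its summit in an intron 284 bp past its TSS, with 53.3 in replicate 2 (rank 584) and 72.0 pooled (rank 1515). The nearest summit in replicate 3 was 261 bp away (40.6, rank 1427), beyond the 200 bp within which summits were matched, so eIF3h has no matched value there. eIF3g1 (FBgn0029629, X 2609247 to 2610336, minus strand) was called through a peak downstream of the gene, 94 bp upstream of the TSS of Smyd3. That peak had 36.4 in replicate 2, 27.6 in replicate 3 and 70.0 pooled (rank 1602).

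Of the 12 other eIF3 genes, 9 had a region in the pooled relaxed list and 3 had none there. eIF3d1 stood just under the threshold, with a pooled signal of 64.1 at rank 1949 and its summit 35 bp upstream of its TSS. It was among the 1941 highest in replicate 3 (40.3, rank 1455) and not in replicate 2 (20.9, rank 5097). eIF3j, which encodes a loosely bound subunit, followed with 60.1 downstream of the gene and 29 bp from the TSS of CG12134, and eIF3f1 with 59.4 at 8 bp past its TSS. eIF3e (43.7), eIF3m (35.0) and eIF3k (28.9) had regions within 123 bp upstream of their TSS. eIF3i (30.0) had one in a coding exon, and eIF3b (26.2) and eIF3l (24.0) had theirs in introns.

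Among the 13 eIF4 genes the only one with a peak was eIF4EHP (7.69%, where 16.1% of all genes had one). It encodes a cap-binding protein that represses translation because it does not recruit eIF4G. eIF4EHP (FBgn0053100, 3R 24063077 to 24108960, minus strand) is the longest of the 44 genes and held 3 thresholded summits. The highest (74.4 pooled, with 36.1 in replicate 2 and 40.0 in replicate 3) was 338 bp upstream of its TSS and 38 bp from that of CG18428. The second (71.6 pooled, with 35.1 in replicate 2 and 33.4 in replicate 3) was 84 bp upstream of the eIF4EHP TSS, which is the nearest start. The third (69.9 pooled) lay in an intron 9806 bp from the TSS. That one had 16.1 in replicate 2 and 50.6 in replicate 3, a log2 difference of 1.65 that was the largest among the 10 member summits matched in both.

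The core genes of cap recognition had relaxed regions only. eIF4E1, the main cap-binding protein gene, had 55.7 and eIF4A, the helicase gene, 53.2, in both cases past the end of the gene and at the TSS of a neighbour, CG4080 at 35 bp and ifc at 69 bp. Both also had lower regions within 500 bp of their own TSS, of 33.7 pooled at eIF4E1 and 45.2 at eIF4A. eIF4G2 (40.2) had its region in an intron and eIF4H1 (39.9) in a 3′ untranslated region. eIF4G1, the scaffold gene on chromosome 4, had 28.2 at 113 bp past its TSS, found in replicate 2 (21.1) and not within 200 bp in replicate 3. eIF4B, which lies at 3L 27842669 to 27858271, had no region in any of the lists, and the nearest thresholded summit was 4963802 bp away.

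eIF6 had the strongest peak at an initiation factor's own promoter. The signal at eIF6 (FBgn0034915, 2R 23849246 to 23850301, minus strand) was 124 in replicate 2, 166 in replicate 3 (mean 145 ± 29.7, SD, n = 2) and 289 pooled, rank 56 of 1941. The summit at 2R 23850396 was 95 bp upstream of the eIF6 TSS, and its place was the same to within 7 bp in both replicates. eIF6 sits within the span of ytr, so the summit is also in a ytr intron, with the nearest ytr start 677 bp away.

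**Figure D2:**
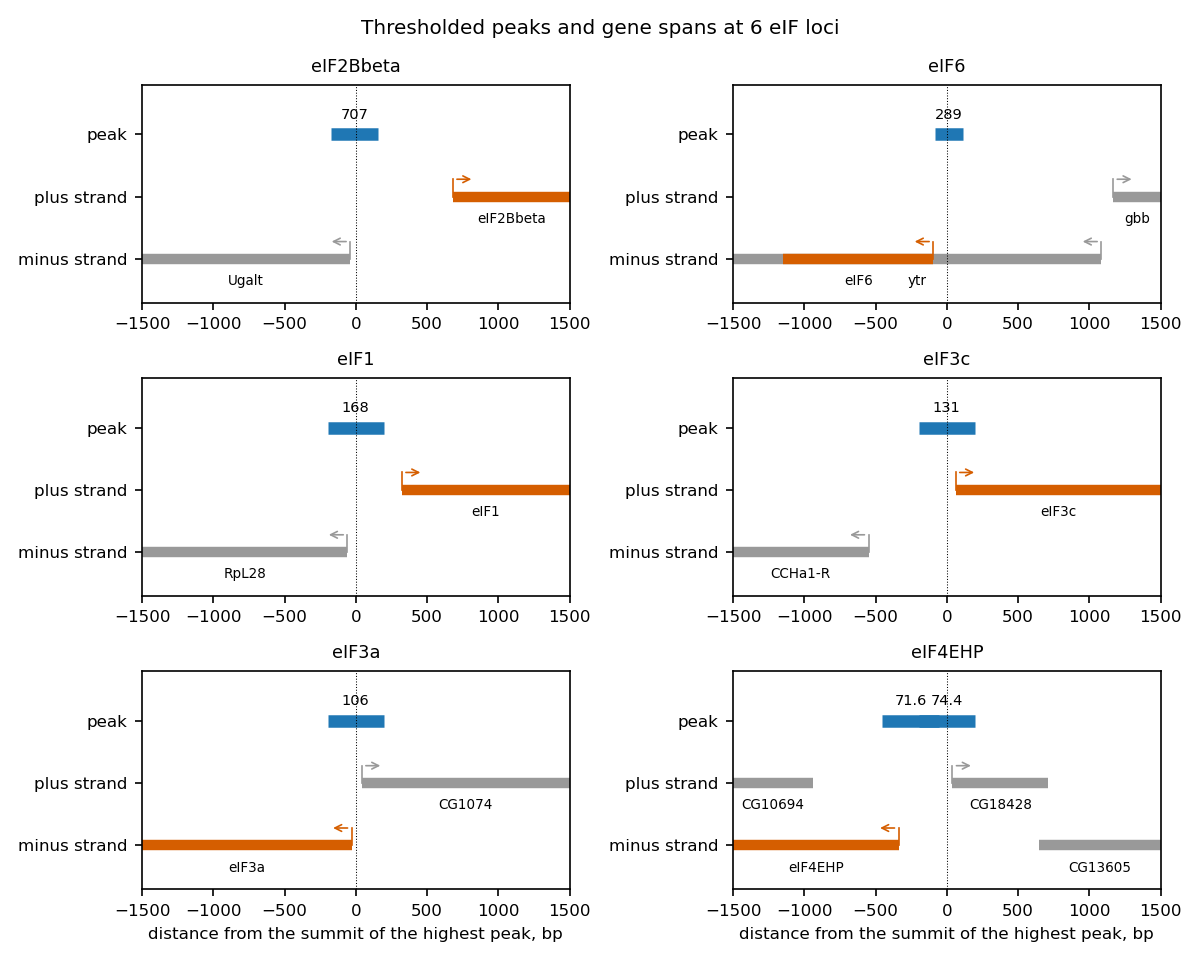
Thresholded peaks (blue bars with their pooled signal) and gene spans on either strand within 1500 bp of the highest summit at 6 eIF genes, with eIF genes in orange, other genes in grey and arrows at the outer start of each gene. The peaks at eIF2Bbeta and eIF1 lie next to Ugalt and RpL28, those at eIF3c and eIF6 next to the eIF start, and that at eIF3a between the starts of eIF3a and CG1074.

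Position separated the called genes into those with a peak at their own start and those called through a neighbour. Of the 11 distinct summits, 5 had an eIF start as the nearest TSS (eIF6, eIF3c, eIF3a, eIF3h and the second of eIF4EHP). At the other 6 another gene's start was nearer, at 38 to 125 bp in all but the intronic summit of eIF4EHP. A second protein-coding gene lay within 1000 bp of 10 of the 11 summits. Over the 37 eIF genes with any pooled region, the best region was within 500 bp of the gene's own TSS in 22, at a median distance of 78.5 bp to either side. Of those 22, 16 were upstream. The eIF start was the nearest in 24 of the 37. For these positions no shares over all summits or all genes were computed, so the counts do not set the eIF genes apart. A TSS of another gene within 1000 bp of their own was annotated for 52.3% of the eIF genes and for 42.9% of all genes.

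**Figure D3:**
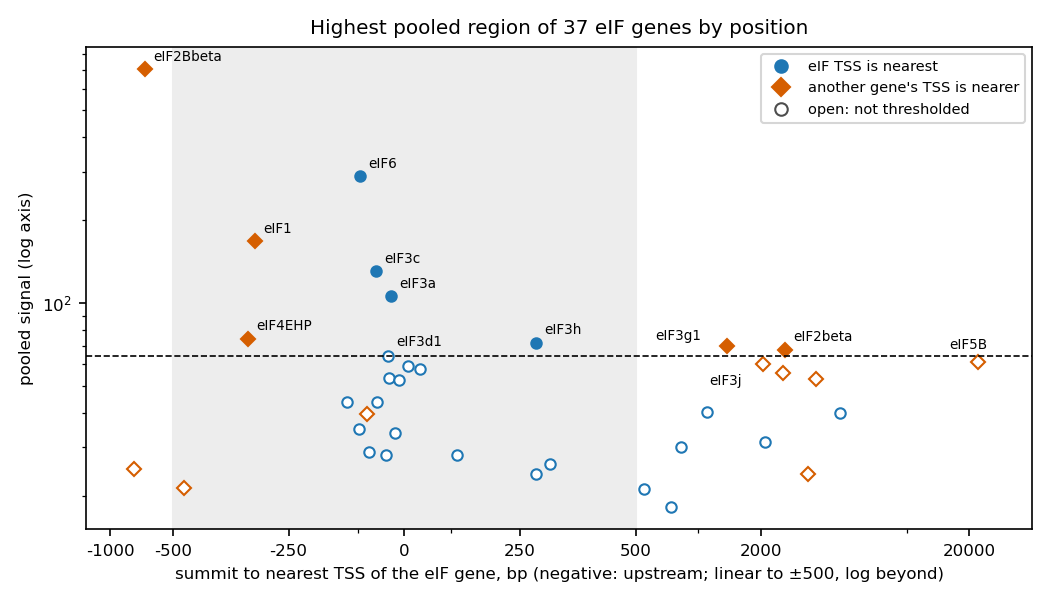
Pooled signal (log axis) of the highest region of 37 eIF genes against the distance of its summit from the gene's nearest TSS, in bp, with upstream negative, a linear scale to 500 bp (grey) and a log scale beyond. Orange diamonds mark regions with another gene's start nearer, among them eIF2Bbeta and eIF1, and blue circles mark regions nearest to the eIF start, among them eIF6, eIF3c and eIF3a.

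Both replicates placed the stronger eIF peaks among their strongest regions. Among the 1941 highest regions of replicate 2, 12 eIF genes had a summit (27.3%, where 16.0% of all genes did), and in replicate 3 there were 8 (18.2%, where 16.0% of all genes did). The count shared by both lists was 7 genes, eIF1, eIF2Bbeta, eIF3a, eIF3c, eIF3h, eIF4EHP and eIF6. For 6 of these the summits also matched within 200 bp (13.6%, where 11.0% of all genes did), all but eIF3h. eIF2beta and eIF3g1 were in the list of replicate 2 and not in that of replicate 3, where they ranked 2461 and 3516. Outside the thresholded list, eIF3j, eIF4E1 and eIF5B were among the highest of replicate 2 alone and eIF3d1 among those of replicate 3 alone. Because the thresholded list is the top of the pooled list, these counts are no independent measure of agreement.

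The spread between replicates at eIF summits was near that over all summits, while the medians differed in sign. Over the 10 member summits found in both replicates, the median log2 difference (replicate 3 over replicate 2) was -0.17 with an SD of 0.68, and 4 of the 10 were higher in replicate 3. Over all 1928 such summits the median was 0.18 with an SD of 0.59, and 1231 of the 1928 were higher in replicate 3. Of the 10 member summits, 3 are those of eIF4EHP, so they are not 10 separate genes. Among the 37 best pooled regions of eIF genes, 29 had a summit within 200 bp in both replicates, where 6691 of the 10111 best regions of all genes did. Replicate 2 alone had one at 4 more, replicate 3 alone at 3 more, and 1 region had no match. Across those 29 regions Spearman's rho of the signals was 0.62, a description over sites that share 2 libraries, and over the 6691 regions of all genes it was 0.68. Over the 21 matched regions of eIF genes without a thresholded peak, rho was 0.31. These regions lie below a cutoff on the pooled signal, which is close to the sum of both replicates. Such a cutoff narrows the range and can lower rho by itself. No like value over all genes was computed, so the 0.31 cannot be set against the 0.62 or the 0.68.

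**Figure D4:**
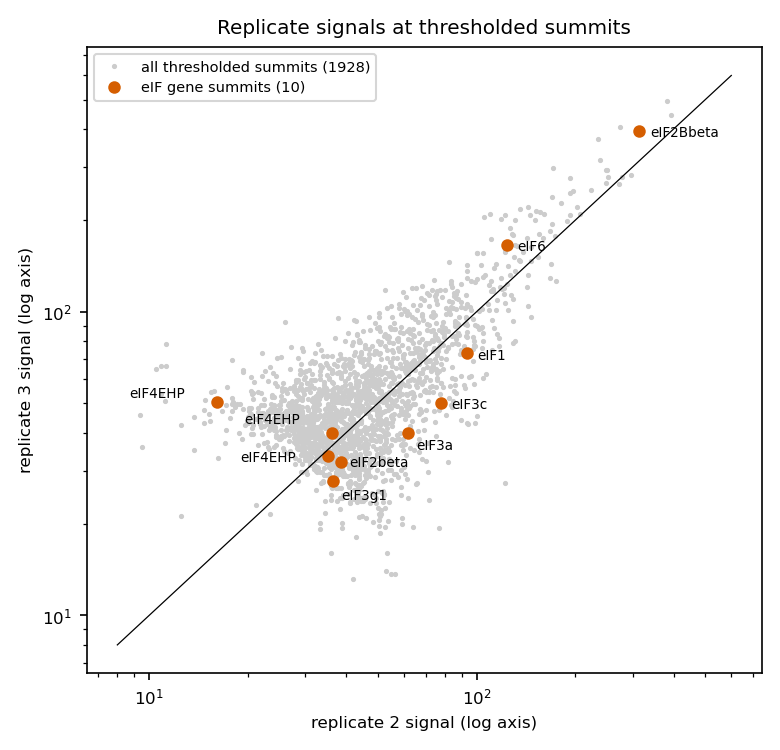
Signal in replicate 3 against signal in replicate 2 (both log axes) for 1928 thresholded summits matched in both replicates (grey) and the 10 of them at eIF genes (orange), with the line of equal signal. eIF2Bbeta and eIF6 lie among the highest in both, and the third summit of eIF4EHP is high in replicate 3 (50.6) and low in replicate 2 (16.1).

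Fewer of the further copies of subunits had a region of any height than of the other eIF genes, a split that was not tested. Their symbols name 11 such genes (eIF3d2, eIF3f2, eIF3g2, eIF4E3, eIF4E4, eIF4E5, eIF4E6, eIF4E7, eIF4EHP, eIF4G2 and eIF4H2). A thresholded peak was at 1 of the 11 (9.09%, eIF4EHP) and at 8 of the other 33 (24.2%), where 16.1% of all genes had one. By the nearest TSS the counts were 2 of 11 (18.2%) and 4 of 33 (12.1%), where 11.5% of all genes were called. The gene added among the copies by that rule is eIF4E5, and the nearest thresholded summit was 7990 bp from its span. A region of any height in the pooled list was at 5 of the 11 copies and at 32 of the other 33, where 72.5% of all genes had one. eIF3d2, eIF3g2, eIF4E3, eIF4E4 and eIF4E5 had no region in the pooled list or in that of either replicate, and eIF3f2 had one in replicate 3 only (19.8, rank 8228). The copies were shorter, with a median span of 1418 bp against 2279 bp for the others, and a longer span gives more room for a summit. The part of gene length in this split was not tested. Of eIF4E6, eIF4E7 and eIF4H2 the best pooled signals were 25.0, 21.2 and 18.2.

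No summit at an eIF gene had CAGCTG, the E-box form that 10.5% of all thresholded summits and 8.77% of windows of equal length at all annotated start sites carry. The search covered both strands of 50 bp on either side of each of the 11 summits. Any CANNTG was present at 6 of the 11 (42.6% of all summits, 43.7% of start site windows). CAAATG was at the summits of eIF3c and eIF4EHP, CATATG at those of eIF2Bbeta and eIF3g1, CAGGTG at eIF3a and CAATTG at eIF6. TATCGATA was at 2 of the 11, eIF1 and eIF3a, and at 2.52% of all summits and 4.48% of start site windows. With 11 windows these counts do not set the eIF genes apart, and a match is a description of the letters only.

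Genes that regulate or follow initiation were counted in the same way from a list chosen by known role. Of 39 such genes, 12 had a peak (30.8%, where 16.1% of all genes did). Their median span was 5814 bp, against 2166 bp for all genes, and the part of length in this share was not tested. Among 11 regulators of the cap and the mRNA, 5 had a peak: Lk6, the eIF4E kinase gene (238 in replicate 2, 317 in replicate 3 and 555 pooled, rank 7), larp, a gene for an mRNA-binding protein (170 in replicate 2, 238 in replicate 3 and 403 pooled, rank 23), pAbp, the poly(A)-binding protein gene (85.1 pooled), NAT1 (72.1), which encodes a relative of eIF4G, and Paip2 (70.2), which encodes an inhibitor of the poly(A)-binding protein. The highest summit of each of the 5 was in an intron. None of the 7 genes for the ternary complex and its stress regulation had one, among them the eIF2alpha kinase genes PEK and Gcn2.

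Elongation factor genes had their peaks at the start of the gene. Of 10 genes for elongation, termination and recycling, 4 had a peak (40%, Wilson interval 16.8 to 68.7, where 16.1% of all genes did). They were eEF1gamma (176 pooled), eEF1alpha1 (96.1), eEF2 (85.4) and eEF5 (65.3, with no matched summit in replicate 3), with summits from 3 to 83 bp from a TSS. The TOR pathway controls translation through the 4E-binding protein and the S6 kinase. Of 11 genes of this pathway, 3 had a peak (27.3%, Wilson interval 9.75 to 56.6, where 16.1% of all genes did). They were InR (243 pooled), Akt (90.1) and S6k (77.1), all in introns. Neither share was tested.

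The same counts were made for genes of the ribosome and the proteasome, which are also used by all cells. A peak was at 9 of 44 eIF genes (20.5%, Wilson interval 11.2 to 34.5), at 56 of 93 cytosolic ribosomal protein genes (60.2%, 50.1 to 69.6) and at 8 of 48 proteasome subunit genes (16.7%, 8.70 to 29.6). The intervals of the eIF and proteasome genes overlap over most of their width. The eIF1 summit is also that of RpL28 and counts in both sets, and RpS14a and RpS14b were called through the same summit. Within 500 bp of a TSS a peak was at 6 of 44 eIF genes (13.6%), 52 of 93 ribosomal protein genes (55.9%) and 7 of 48 proteasome genes (14.6%), where 10.3% of all genes had one. The highest signals of the sets were 707 for eIF genes, 352 for ribosomal protein genes and 259 for proteasome genes. The 707 is that of the summit nearest to Ugalt, and within 500 bp of an eIF gene's own TSS the highest was 289, at eIF6. The 259 is also a neighbour's by the nearest start. It lies downstream of Rpn5, 2222 bp from its TSS and 164 bp from that of Hpf1, so 289 and 259 are not like values. The median of each gene's best pooled signal was 44.0 over 37 eIF genes, 79.5 over 88 ribosomal protein genes, 34.8 over 33 proteasome genes and 36.7 over all 10111 genes with a region. The sets were chosen with earlier results known and the shares were not tested against each other.

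**Figure D5:**
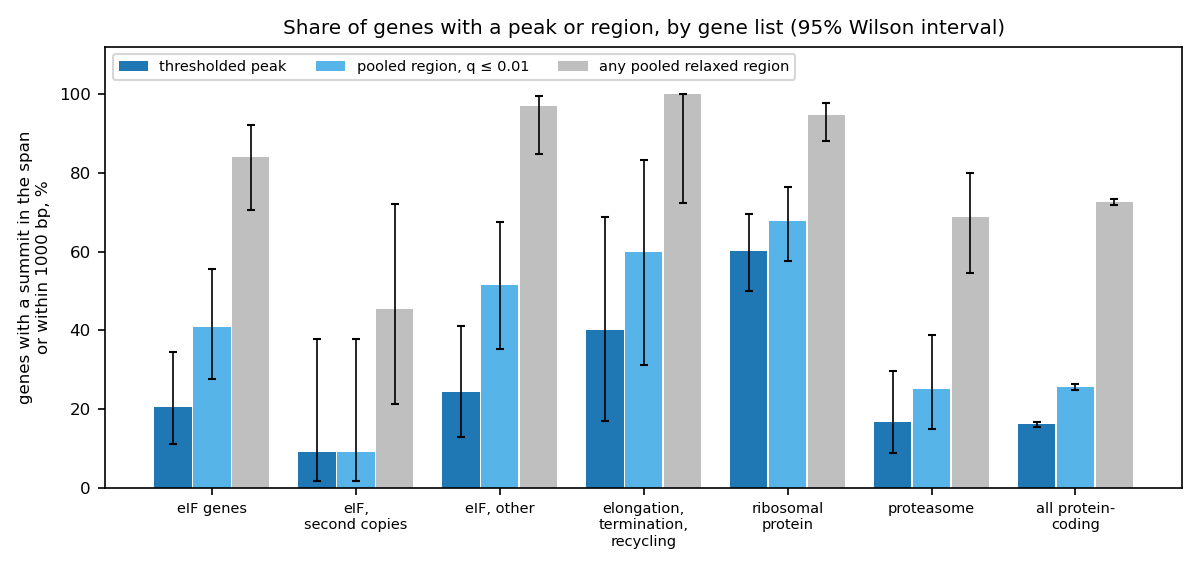
Share of genes, in percent, with a summit in the span or within 1000 bp, for thresholded peaks, pooled regions with q of 0.01 or less and any pooled relaxed region; bars start at 0 and lines are 95% Wilson intervals. The 44 eIF genes stand at 20.5%, 40.9% and 84.1%, and all protein-coding genes at 16.1%, 25.5% and 72.5%.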

How the data were processed

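Binding of GFP-tagged Daughterless was measured by ChIP-seq in 2 biological replicates of 1 group. Per the deposited notes, the authors derived each relaxed list from 1 alignment (or from both, pooled) and a control, and the thresholded list from the 3 relaxed lists. The signal of a region is the authors' peak height, and the −log10 q is the authors' value, which ends at 3.54 in the pooled list. Aligner, caller and threshold: not given in the sources used here. Files in dm6 were used, and those in dm3 were not. Depth is unknown, so intervals (Wilson, 95%) cover counting over genes only.

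Summits were assigned to genes and start sites of Ensembl release 115 (BDGP6, dm6 coordinates) and replicate summits were matched within 200 bp with Python 3.11.15, NumPy 2.4.6, SciPy 1.17.1 and matplotlib 3.10.9, after the code was tested on simulated summits. Tor was looked up under its annotated name, mTor. All eIF genes are named, as are up to 5 genes with a peak per other list. Alternatives changed the distance, the assignment, the threshold, the replicate and the window. Members and lists were chosen with earlier results of these data known. No test across genes was made.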

Additional observations from a re-analysis of the deposited data

How the results depend on the processing

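The 9 eIF genes with a peak became 2 (4.55% of eIF genes, 6.53% of all) with summits inside the gene span, 5 (11.4%, 8.78%) above the median of the thresholded list and 18 (40.9%, 25.5%) with pooled regions of q of 0.01 or less. The count stayed within 1.5 times of 9 with summits within 500 bp of the span (7, 15.9% of eIF genes and 14.2% of all), by the nearest TSS (6, with eIF4E5 among them, 13.6% and 11.5%) and by overlap of the region (9, 20.5% and 16.9%). It was 8 without replicate 2 (18.2%, 16.0%) and 12 without replicate 3 (27.3%, 16.0%), from the other replicate's own highest regions. The 12 pathway genes became 6 above that median (8.78% of all genes) and 19 with q of 0.01 or less (48.7%, where 25.5% of all genes were called). In 1 replicate they were 10 to 15 (25.6% to 38.5%, where 16.0% of all genes were called). The 6 eIF genes with a peak at a TSS (13.6%, where 10.3% of all genes had one) ranged from 4 to 7 over all alternatives. The 6 with a matched top region in both replicates (13.6%, where 11.0% of all genes had one) also ranged from 4 to 7. The shares of all genes under these alternatives are not given, so both ranges describe the eIF genes only. CAGCTG stayed at 0 summits in a window of 51 bp in all, in one of 100 bp on either side and in either replicate's own list. The median signal of 106 was 118 with summits within 500 bp of a TSS and 74.4 with each of the 11 summits taken once, since eIF4EHP then counts with 3. No paired analysis was possible because there is only 1 group. Depth is unknown, so a missing region cannot be told from one too weak to be listed.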

Other observations

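With a looser limit, which keeps the thresholded genes in the count, the share of eIF genes stood further above that of all genes. At a pooled q of 0.01 or less, 18 of 44 eIF genes (40.9%, Wilson interval 27.7 to 55.6) had a summit, where 25.5% of all genes did. Beside the 9 with a thresholded peak these were eIF3d1, eIF5B, eIF3j, eIF3f1, eIF2D, eIF4E1, eIF2gamma, eIF4A and eIF2Bepsilon, with pooled signals from 52.6 to 64.1. In 5 of these 9 the summit was within 35 bp of the gene's own start (eIF3d1, eIF3f1, eIF2D, eIF2gamma and eIF2Bepsilon). No share over all genes was computed for this position, and at eIF2gamma a start of Su(var)3-9 is as near. At eIF3j, eIF4E1, eIF4A and eIF5B another gene's start was nearer. As given above, eIF3j, eIF4E1 and eIF5B were among the 1941 highest regions of replicate 2 alone and eIF3d1 among those of replicate 3 alone. The rest were in neither. Any pooled region within 500 bp of a TSS was at 31 of 44 eIF genes (70.5%), where 51.6% of all genes had one. This difference was noticed in the data and was not tested.

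Some eIF genes missed the distance limit of 1000 bp by little. The nearest thresholded summit was 1255 bp from the span of eIF3d1, 1285 bp from that of eIF2Bgamma and 1616 bp from that of eIF2D. None of the 44 eIF genes had CTTTT starting within 2 bp of an annotated TSS on its own strand, a form of the TCT initiator known from ribosomal protein genes. This strict search found it at only 8 of 93 ribosomal protein genes (8.60%) and at 1.20% of all genes. With shares that low, its absence from 44 genes does not set the eIF genes apart, and other forms of the initiator were not searched. The gene of the tagged protein, da, had a peak of 39.9 in replicate 2, 55.2 in replicate 3 and 97.2 pooled, just upstream of its TSS, a signal below that of eIF3a.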
